A study of Mus musculus with 16 samples.

Results

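Arhgap24, Igsf3, Kif26a and Entpd3 are 4 of the 22392 genes counted in Hepa1-6 cells, a mouse hepatoma line, and they were picked on their measured RNA: in this table each moved the same way in all 3 Eef1d exon 5 KO clones. Eef1d encodes a subunit of the complex that recharges the elongation factor eEF1A with GTP, and exon 5 of the gene was deleted with CRISPR-Cas9. WT cells and the clones KO1, KO2 and KO3 (clones #1, #2 and #3 in the labels) were each represented by 2 replicates. Each replicate was lysed once and gave a Ribo-seq library, which counts ribosome-protected mRNA fragments (footprints), and an RNA-seq library, so that there were 16 libraries in all. By the paper's methods, KO1 and KO2 were made with the same pair of guide plasmids, and KO3 with a pair that shares 1 of them. Effects of the guides were not tested. No other treatment is named for the groups. Each KO line grew from 1 cell after puromycin selection, whereas nothing states that the WT cells were cloned or selected, so the deletion and the cloning cannot be told apart. All 3 clones are compared with the same WT libraries. Nothing in the labels says that the replicates were separate cultures, so p-values measure the spread between these samples, which may be technical.

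The 4 proteins belong to different processes. Arhgap24, also called FilGAP, is a GTPase-activating protein that binds filamin A and switches off Rac, a small GTPase of the actin cytoskeleton. Igsf3 is an immunoglobulin superfamily protein of the cell surface, from a subfamily (EWI) whose members associate with tetraspanins. Kif26a is an unconventional kinesin known for restraining GDNF-Ret signalling through the adaptor Grb2 in enteric neurons. Entpd3 is an ectonucleotidase, an enzyme of the plasma membrane that removes phosphates from ATP and ADP outside the cell.

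Counts were taken from 1 transcript per gene, the one with the largest total over the 16 libraries. In the annotation of GRCm38, the Arhgap24 transcript ENSMUST00000094559.8 spans chr5:102481391-102897937 on the plus strand, with 9 coding exons and 747 amino acids. The Igsf3 transcript ENSMUST00000043983.10 lies at chr3:101377083-101463059 on the plus strand and has 10 coding exons for 1194 amino acids. An antisense gene, Gm42538, overlaps coding exons of Igsf3, and since the strand setting of the counting is not stated in the sources used here, reads of these genes may not be separated. Kif26a (ENSMUST00000128402.2, chr12:112146208-112181747, plus strand) has 16 coding exons and 1881 amino acids. Entpd3 (ENSMUST00000047687.8, chr9:120539818-120568327, plus strand) has 10 coding exons and 529 amino acids. No annotated gene overlaps the coding exons of the other three transcripts.

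Promoter sequences are shown because the 4 genes were picked on RNA level, each moving 1 way in all 3 clones. Arhgap24 and Igsf3 rose while Kif26a and Entpd3 fell, so no feature common to them is presumed. RefSeq sequences on GRCm38.p6 were matched for 3 of the 4 genes, and Arhgap24 had no entry. The 250 bases before the RefSeq start are given 5′ to 3′ on the plus strand, at chr3:101376875-101377124 for Igsf3, chr12:112145958-112146207 for Kif26a and chr9:120539568-120539817 for Entpd3. Capitals mark matches on either strand to the GC box GGGCGG, the CCAAT box, the AP-1 site TGANTCA and the E-box CACGTG.
Igsf3: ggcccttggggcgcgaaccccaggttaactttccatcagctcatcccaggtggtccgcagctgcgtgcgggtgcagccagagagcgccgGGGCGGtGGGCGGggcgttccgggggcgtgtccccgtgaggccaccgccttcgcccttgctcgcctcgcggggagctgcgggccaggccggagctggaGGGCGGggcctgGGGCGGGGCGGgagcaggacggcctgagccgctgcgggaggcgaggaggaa
Kif26a: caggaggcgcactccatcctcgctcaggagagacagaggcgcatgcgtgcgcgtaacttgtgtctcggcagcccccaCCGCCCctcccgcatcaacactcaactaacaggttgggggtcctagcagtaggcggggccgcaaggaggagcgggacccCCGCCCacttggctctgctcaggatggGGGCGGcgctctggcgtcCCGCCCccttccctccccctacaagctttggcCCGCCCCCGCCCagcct
Entpd3: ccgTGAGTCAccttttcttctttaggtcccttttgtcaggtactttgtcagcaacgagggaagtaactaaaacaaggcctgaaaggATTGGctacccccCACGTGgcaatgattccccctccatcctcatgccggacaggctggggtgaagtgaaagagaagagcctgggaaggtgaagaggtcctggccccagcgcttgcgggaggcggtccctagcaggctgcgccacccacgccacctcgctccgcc
Igsf3, which was higher in the clones, and Kif26a, which was lower, both had GC boxes, 5 and 6 of them, where neighbouring matches in Igsf3 overlap by a base. GC boxes were held by 32.7% of the 32851 promoters of this length. Entpd3 had no GC box but 1 CCAAT box (held by 33.8% of promoters), 1 AP-1 site (6.75%) and 1 E-box (6.02%). None of the 3 promoters had the TATA box core TATAAA, which 12.4% of promoters hold. G and C made up 75.6% of the Igsf3 sequence, 69.2% of Kif26a and 58.8% of Entpd3, and the median over all promoters was 52.4%. No motif searched was thus shared by all 3 sequences. A match is only a run of letters and was not tested as a binding site.

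RNA-seq libraries held between 10493030 and 12946819 counts on 1 transcript per gene, and Ribo-seq libraries between 1138943 (KO1 replicate 2) and 4886753 (KO1 replicate 1). The deletion was visible at Eef1d: in RNA-seq, the transcript with exon 5 had 116.0% and 116.2% of the counts of the transcript without it in WT, while the clones had from 89.8% to 92.6%. Hepatocyte genes were present but uneven. The level is given in CPM, counts scaled to a common library size with TMM factors. The summed RNA level of the 10 hepatocyte markers was 2422 and 2599 CPM in WT, 976 and 978 for KO1, 1906 and 2030 for KO2, then 3557 and 3728 for KO3. Of the 7 tested markers, all 7 were called lower in KO1 RNA, 4 lower and 1 higher in KO2, and 4 lower and 2 higher in KO3. Fgb, a fibrinogen chain, and Trf, transferrin, were lower in all 3 clones, with log2 changes of -1.40, -2.43 and -0.71 for Fgb and -1.75, -0.28 and -0.62 for Trf in KO1, KO2 and KO3. Alb, the serum protein albumin, fell in KO1 as well as KO2 but rose in KO3. Ttr, Apoa1 and Ahsg, which mark mature hepatocytes, had no counts in some libraries. Among 10 markers of other cell types 3 were tested, their sum was between 74.8 and 129 CPM, and Myod1, Lyve1 and Adgre1 were at 0 in every RNA-seq library. The part of hepatocyte identity in the results below was not tested.

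All 4 members were genes of low level in WT cells. Per 1000 counted codons, their WT RNA was 2.20 CPM for Arhgap24, 2.78 for Igsf3, 1.06 for Kif26a and 2.03 for Entpd3, beside a median of 64.5 over the 11755 genes kept in RNA-seq. Every member therefore stood at or below the 6.13th percentile of that scale. 

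Arhgap24 RNA was higher in every clone. WT libraries had 14 and 23 counts, which are 1.27 and 1.96 CPM. KO1 had 69 and 75 counts (5.98 and 7.04 CPM), KO2 had 52 and 78 (4.86 and 6.34 CPM), and KO3 had 36 and 42 (2.86 and 3.44 CPM). The 6 KO libraries were all above both WT libraries, KO1 and KO2 overlapped, and KO3 lay between WT and the other clones. How many genes are so separated in RNA was not counted, so this is a description only. Fitted with edgeR, the RNA was higher in KO1 by a log2 change of 2.00 ± 0.31 (SE, n = 2 per line), 3.47-fold higher in KO2 (1.79 ± 0.31) and 1.94-fold higher in KO3 (0.95 ± 0.34). These values chose the gene and carry no test. In bulk libraries such as these, more cells that express a gene and more RNA per cell cannot be told apart.

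Most reads came from the part of Arhgap24 that its annotated isoforms share. The table lists 6 transcripts of the gene, of which the long one used here has 738 counted codons and a shorter one, ENSMUST00000073302.11, has 645. Summed over the RNA-seq libraries the long transcript had 389 counts and the short one 385. The net difference of 4 counts is 1.03% of the total, with an exact 95% binomial interval from 0.281% to 2.61%, whereas the 93 additional codons make up 12.6% of the long coding sequence. In Ribo-seq the totals were 76 and 75 counts. The counts therefore follow the shorter coding sequence and hold almost nothing of the additional N-terminal codons of the long isoform.

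Igsf3 RNA was also higher in every clone, but in another order. WT had 36 and 39 counts (3.27 and 3.32 CPM), KO1 had 76 and 68 (6.58 and 6.38 CPM), KO2 had 96 and 97 (8.98 and 7.89 CPM), and KO3 had 153 and 131 (12.1 and 10.7 CPM). The replicates of no pair of lines overlapped, so the RNA level was ordered WT, KO1, KO2, KO3. These values chose the gene, and the share of genes so separated in RNA was not counted. For Arhgap24 the order was WT, KO3, then KO2 and KO1. The RNA of Igsf3 was 1.97-fold higher in KO1 (log2 change 0.98 ± 0.24, SE, n = 2 per line), 2.55-fold in KO2 (1.35 ± 0.23) and 3.47-fold in KO3 (1.79 ± 0.21). Its other transcript, 1205 counted codons long, had nearly the same counts.

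Kif26a RNA was at or near 0 in the clones. WT libraries had 21 and 24 counts, or 1.91 and 2.04 CPM. KO1 had none in either library, KO2 had 0 and 1, and KO3 had 1 and 3. Against the floor of 3 counts over both KO1 libraries, KO1 was at least 14.6-fold lower than WT, a bound that falls to 7.03 without KO1 replicate 1 and 7.61 without KO1 replicate 2, since the floor stays the same at a lower depth. The WT level was 45.5 times that of KO2, with a 95% counting interval from 7.76 to 1836, and 12.3 times that of KO3, with an interval from 4.47 to 47.0. The estimate for KO2 rests on 1 count, in KO2 replicate 2, and without that library KO2 is at least 7.05-fold lower. Without KO3 replicate 2 the WT level is 24.9 times that of KO3, and without KO3 replicate 1 it is 8.05 times. Without KO2 replicate 1 it is 24.3 times that of KO2. Intervals here cover counting error only, and the bounds take the WT level as measured, without its counting error.

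Entpd3 RNA went the same way from a lower start. WT had 11 and 13 counts (1.00 and 1.11 CPM), and KO1 and KO3 had 0 in both libraries. KO2 kept 1 and 2 counts. Against 3 counts over the group and with WT as measured, Entpd3 was at least 7.81-fold lower in KO1 and 8.73-fold lower in KO3. These bounds fall to 3.75 and 4.06 without KO1 replicate 1 or 2, and to 4.29 and 4.43 without KO3 replicate 1 or 2. In KO2 the WT level was 8.08 times higher, with a counting interval from 2.46 to 41.9. Kif26a and Entpd3 thus differed in the clone that kept some RNA: KO3 had the most Kif26a counts, 4 in all, and KO2 the most Entpd3 counts, 3 in all. These counts are too few to set the clones apart. Both genes passed the filter on low RNA counts through the WT libraries, which is where they are high.

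**Figure D1:**
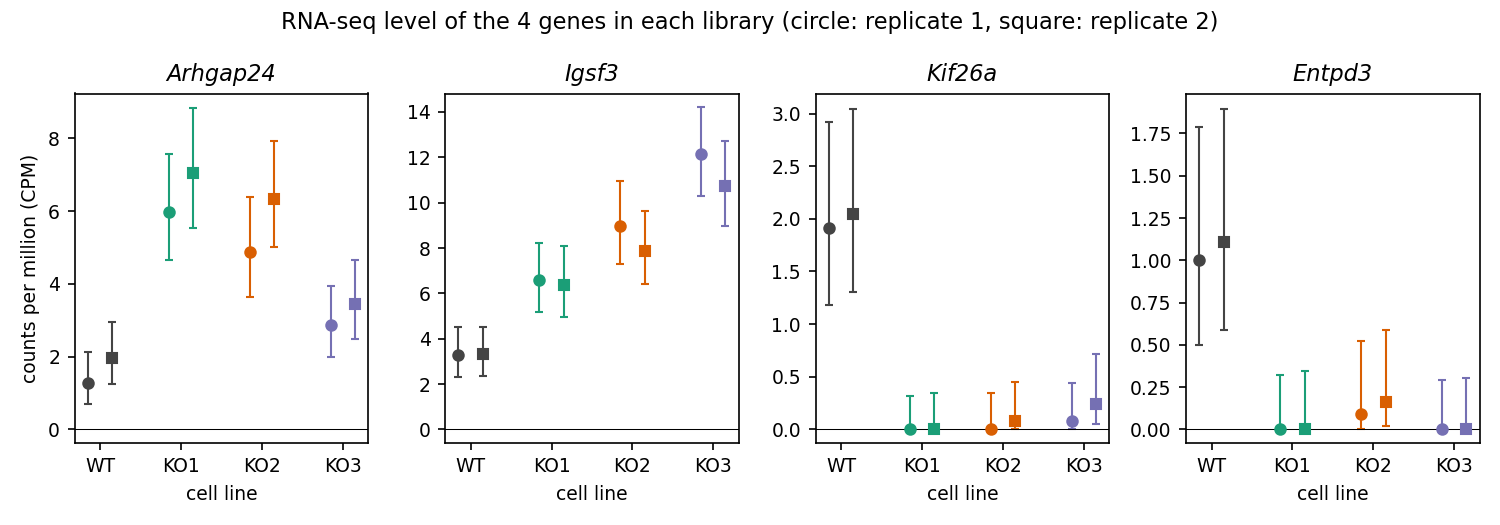
RNA level in CPM (y axis, linear from 0) of the 4 genes in each of the 8 RNA-seq libraries, by cell line (x axis). Circles and squares are replicates 1 and 2, and bars are exact 95% Poisson intervals of the count. For Arhgap24 and Igsf3 the 6 KO libraries are above both WT libraries, and for Kif26a and Entpd3 they are at or near 0.

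These members are 4 of a small set of genes. With edgeR's quasi-likelihood test and Benjamini-Hochberg adjustment, 89 of 11755 genes (0.757%) were called higher in RNA in all 3 clones and 88 (0.749%) lower. All 4 members were among them, which their choice had fixed. By the size of the mean change over the clones, Arhgap24 stood at place 3 and Igsf3 at place 5 of the 89.

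The genes were picked on RNA, and footprints entered only through the total that chose the transcript. Footprints came from the same lysates as the RNA, however, so they are not independent of the choice. Igsf3 footprints were higher in KO2 and KO3, Arhgap24 footprints in KO1, and the footprints of Kif26a and Entpd3 were too few for the fit. Depth limits each of these statements, since no member had more than 9 footprints in the WT libraries together. On the scale per 1000 counted codons, WT footprints of Arhgap24 (2.03 CPM), Igsf3 (0.985 CPM), Kif26a (0.267 CPM) and Entpd3 (2.24 CPM) were far below the median of 59.9 CPM over the 10763 genes kept.

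Igsf3 had 2 and 5 footprints in WT, 16 and 4 for KO1, 19 and 12 for KO2, then 20 and 23 for KO3. In CPM these are 0.559 and 2.07 in WT, 3.24 and 3.41 for KO1, 4.76 and 4.03 for KO2, then 4.92 and 7.20 for KO3. The lines did not overlap and stood in the order of their RNA, with WT lowest and KO3 highest. KO2 replicate 1 and KO3 replicate 1 were close, at 19 and 20 footprints. The share of genes with lines so separated was not counted, so this order is not read as a result. All 6 KO libraries lay above both WT libraries, which held for 3.2% of the genes kept. The footprint change in KO3 was 5.08-fold (log2 change 2.34, 95% interval 1.29 to 3.40, adjusted p = 0.000566 by edgeR's quasi-likelihood test), in a comparison where 28.8% of genes were called. In KO2 the change was 3.80-fold (1.92, 0.79 to 3.06, edgeR adjusted p = 0.0180), where 11.7% of genes were called. In KO1 it was 2.80-fold (1.49, 0.23 to 2.74) and did not pass, with an edgeR adjusted p of 0.0742, where 26.3% of genes were called.

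Over the mean of the clones Igsf3 footprints were 3.78-fold higher (log2 change 1.92, 95% interval 0.92 to 2.92, edgeR adjusted p = 0.00762), a call that 9.25% of genes received. The clones did not differ from each other in Igsf3 footprints by the test: KO3 minus KO1 was 0.86 on the log2 scale (0.03 to 1.69, edgeR adjusted p = 0.0811), KO2 minus KO1 was 0.44 (-0.45 to 1.33, edgeR adjusted p = 0.471) and KO3 minus KO2 was 0.42 (-0.32 to 1.16, edgeR adjusted p = 0.388). The calls leaned on WT replicate 1, which held 2 Igsf3 footprints. Without it the change was 1.53 in KO3 (edgeR adjusted p = 0.0803), 1.10 in KO2 (edgeR adjusted p = 0.395) and 1.10 for the mean (edgeR adjusted p = 0.423), all still higher than WT but no longer called. Leaving out WT replicate 2 instead raised the KO1 change to 2.55 and brought it past the threshold (edgeR adjusted p = 0.0324). The KO2 call was also lost without KO2 replicate 1 (1.78, edgeR adjusted p = 0.145). DESeq2 kept the KO3 call (2.31, adjusted p = 0.0302), gave no adjusted p in KO2 and lost the call of the mean (1.87, adjusted p = 0.169).

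Arhgap24 footprints numbered 6 and 3 in WT, 26 and 8 for KO1, 15 and 5 for KO2, then 9 and 4 for KO3. The levels were 1.68 and 1.24 CPM in WT, 5.26 and 6.83 for KO1, 3.76 and 1.68 for KO2, then 2.22 and 1.25 for KO3. KO1 was above every other library, whereas KO3 overlapped WT and the lower KO2 library was level with the higher WT library. KO1 rose 3.73-fold (log2 change 1.90, 95% interval 0.85 to 2.96, edgeR adjusted p = 0.00505). KO2 (0.93, -0.26 to 2.13, edgeR adjusted p = 0.350), KO3 (0.26, -1.06 to 1.58, edgeR adjusted p = 0.811) and the mean of the clones (1.03, 0.01 to 2.04, edgeR adjusted p = 0.225) did not pass, and the intervals include changes as large as those of the RNA.

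The difference between clones was itself tested. KO3 was lower than KO1 in Arhgap24 footprints by a log2 difference of -1.65 (95% interval -2.61 to -0.68, edgeR adjusted p = 0.00408). Such a difference between these clones was called for 46.9% of genes, so that it is not particular to Arhgap24. KO2 minus KO1 was -0.97 (-1.84 to -0.10, edgeR adjusted p = 0.0761, 36.2% of genes called) and KO3 minus KO2 was -0.68 (-1.76 to 0.41, edgeR adjusted p = 0.341, 38.5% called). Without KO1 replicate 1 the rise in KO1 was 2.19 and no longer called (edgeR adjusted p = 0.0731), and DESeq2 gave 1.99 with an adjusted p of 0.103. The difference between KO3 and KO1 was lost as a call without KO1 replicate 1 (-1.93, edgeR adjusted p = 0.0576), without KO3 replicate 2 (-1.34, edgeR adjusted p = 0.0546) and with DESeq2 (-1.74, adjusted p = 0.0786). The KO2 minus KO1 difference passed only without KO2 replicate 1 (-1.74, edgeR adjusted p = 0.0450).

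Neither gene was called in footprints in all 3 clones, where 22 of 10763 genes (0.204%) were called higher. Of the 89 genes called higher in RNA in all 3 clones, 86 were tested in footprints, 69 were called higher in at least 1 clone and 17 in all 3. Arhgap24 and Igsf3 were among the 69.

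**Figure D2:**
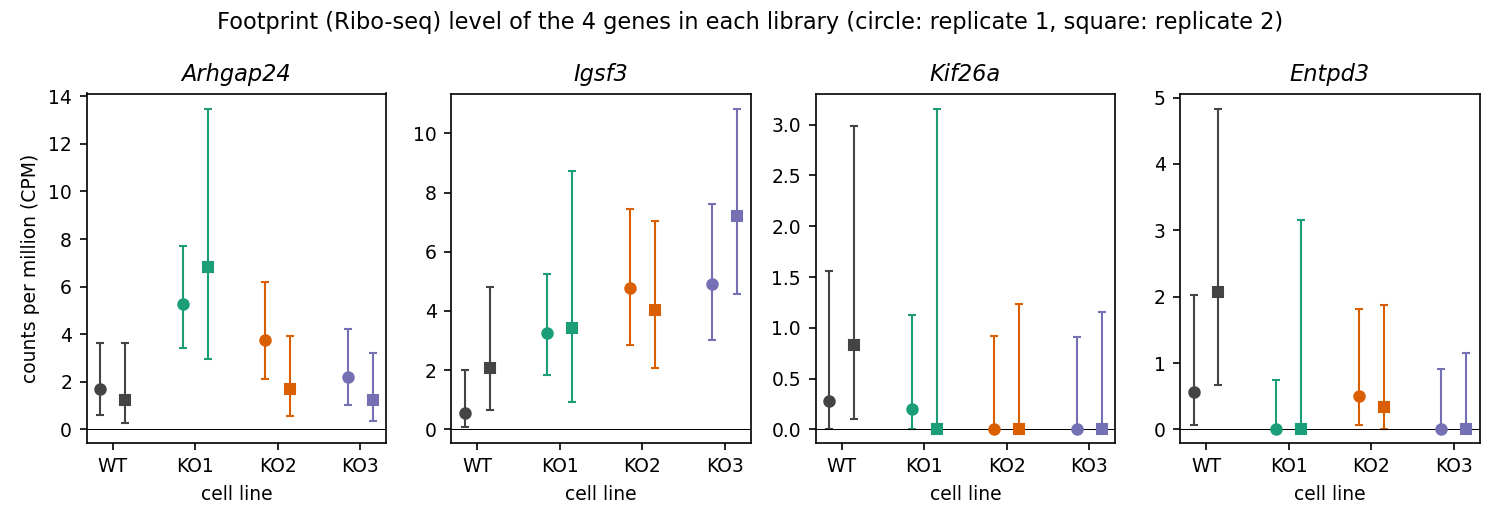
Footprint level in CPM (y axis, linear from 0) of the 4 genes in each of the 8 Ribo-seq libraries, by cell line (x axis). Circles and squares are replicates 1 and 2, and bars are exact 95% Poisson intervals of the count. The points of Igsf3 lie above WT in all 6 KO libraries and those of Arhgap24 clearly only in KO1, while their intervals overlap with WT intervals. The intervals of Kif26a overlap in every line.

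Kif26a had 1 and 2 footprints in WT cells, 1 and 0 in KO1, and none in KO2 or KO3. At these depths the counting interval of 0 counts over both libraries reaches 0.529 CPM in KO2 and 0.508 CPM in KO3. Both limits lie above the WT level of 0.50 CPM, which rests on 3 counts itself. A loss of Kif26a footprints was therefore hardly detectable at this depth, and no fold is given. Entpd3 had 2 and 5 footprints in WT (0.559 and 2.07 CPM), 2 and 1 in KO2 (0.501 and 0.335 CPM), and none in KO1 or KO3. Both WT libraries were above all KO libraries, although WT replicate 1 and KO2 replicate 1 had the same count and differ only by library size. The share of all genes with WT above every KO library was not counted, so this is not read as a result. Against the floor of 3 counts, Entpd3 footprints were at least 2.38-fold lower in KO1 and 2.82-fold lower in KO3, with WT as measured. That WT level, 1.17 CPM from 7 counts, has a counting interval from 0.469 to 2.40 CPM, which these bounds leave out. The WT level was 2.71 times that of KO2, with a counting interval from 0.619 to 16.3. Kif26a WT replicate 1 and KO1 replicate 1 likewise had 1 count each (0.279 and 0.202 CPM). An exact permutation test of footprint CPM in 2 WT against 6 KO libraries gave a two-sided p of 0.0714 for both genes. With the smaller tail doubled, as here, this is the lowest p the test can give. It can therefore not pass 0.05, and no conclusion is drawn from it.

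Translational efficiency (TE), the footprint change beyond the RNA change, was tested in 1 model of all 16 libraries. The RNA component of this measure was used in choosing the genes, so it is not independent of their choice. For Igsf3 the TE change on the log2 scale was 0.50 (KO1, 95% interval -0.85 to 1.85), 0.56 (KO2, -0.71 to 1.84) and 0.54 (KO3, -0.70 to 1.77). The edgeR adjusted p-values for Igsf3 were between 0.950 and 1.000. For Arhgap24 it was -0.10 in KO1 (-1.45 to 1.24), -0.87 in KO2 (-2.31 to 0.56) and -0.71 in KO3 (-2.23 to 0.81), with edgeR adjusted p-values from 0.948 to 1.000. Over the mean of the clones the TE change was 0.53 (-0.64 to 1.70) for Igsf3 and -0.56 (-1.85 to 0.72) for Arhgap24. Every one of these intervals includes 0 and reaches beyond 1 in at least 1 direction, so neither a TE change nor equal TE was shown.

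TE calls were rare in the whole table: 0.084% of 11903 genes were called for KO1, 0.0252% for KO2, 0.0588% for KO3, and for the mean of the clones 0%, where 452 genes had an unadjusted p under 0.05 and DESeq2 also called 0. With the shared lysate as a block, which the protocol supports, 53 genes were called in KO1 and 33 in KO3, and neither member was among them. Leaving out WT replicate 1 turned the TE change of Igsf3 to -0.31 in KO1, -0.24 in KO2 and -0.26 in KO3. As plain ratios of footprint CPM to RNA CPM, Igsf3 stood at 0.354 in WT, 0.505 in KO1, 0.530 in KO2 and 0.518 in KO3, beside a median of all genes near 0.891 in WT. Arhgap24 stood at 0.922 in WT, 0.858 in KO1, 0.507 in KO2 and 0.570 in KO3. Kif26a had a ratio of 0.253 in WT from 3 footprints, and Entpd3 1.11 from 7.

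**Figure D3:**
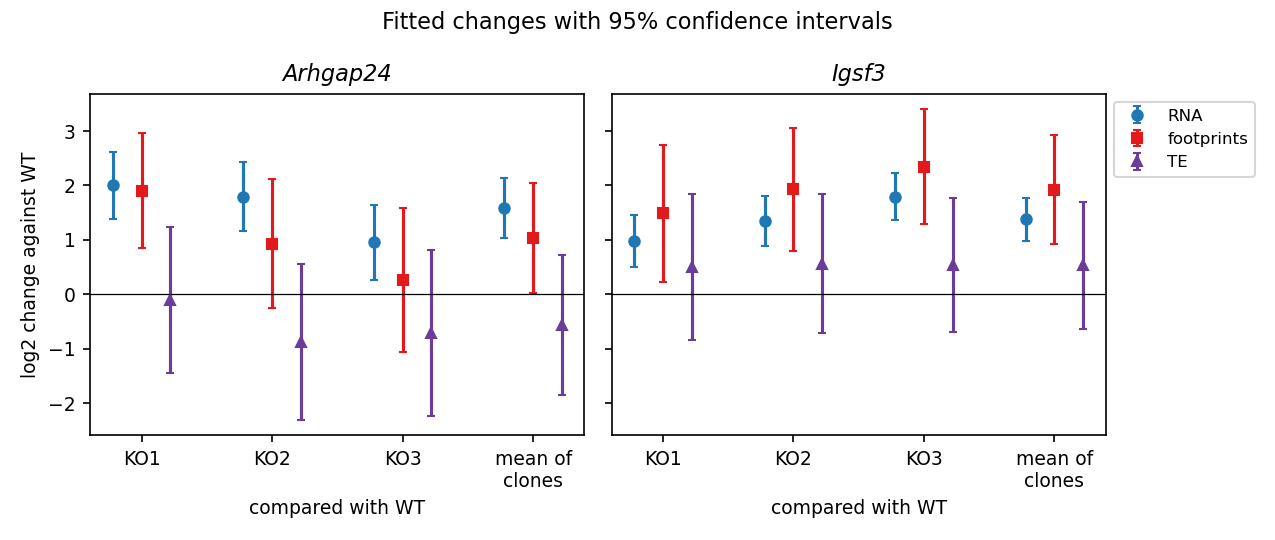
Fitted log2 change against WT (y axis) of RNA, footprints and TE for Arhgap24 and Igsf3, in each clone and for the mean of the clones (x axis), with 95% confidence intervals. RNA intervals lie above 0 in every clone, the footprint intervals of Igsf3 lie above 0 and those of Arhgap24 only in KO1 and, narrowly, for the mean, and all TE intervals include 0.

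Genes of the same pathways were taken from lists and counted in the same fits. None of the 15 tested genes around Rac and filamin was called in RNA in 1 direction in all 3 clones. Over all genes tested, 0.757% were called higher in this way and 0.749% lower. Rac1 itself, the target of Arhgap24, was higher in KO1 (0.55, edgeR adjusted p = 3.86e-11), lower in KO2 (-0.26, edgeR adjusted p = 0.000333) and at 0.05 in KO3. Flna, the filamin that binds Arhgap24, was lower in KO1 (-0.22) and higher in KO2 (0.26), both called. Rac1 and Flna were named after their values were seen. In RNA, 10 of the 15 genes were lower and 3 higher in KO1, 7 lower and 1 higher in KO2, and 2 lower and 5 higher in KO3. Over all 11755 genes tested, 2754 were lower and 2356 higher in KO1, 1127 lower and 1346 higher in KO2, and 2462 lower and 2478 higher in KO3.

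Of 9 tested EWI and tetraspanin genes, 1 was higher and 1 lower in RNA in all 3 clones. Among all 11755 genes tested, 0.757% were higher and 0.749% lower. Ptgfrn, the EWI protein most studied as a partner of the tetraspanins Cd9 and Cd81, had 87.9 and 83.6 CPM of RNA in WT. The 6 KO libraries had between 101 and 121 CPM. Its RNA rose by 0.41 in KO1 (edgeR adjusted p = 2.32e-05), 0.39 in KO2 (edgeR adjusted p = 0.000196) and 0.30 in KO3 (edgeR adjusted p = 0.00123). As with Cd151 below, the RNA calls chose Ptgfrn from the list, so these p-values carry no weight as a test. Ptgfrn footprints rose too, from 49.5 and 43.4 CPM in WT to between 59.8 and 70.9 CPM in the clones, by 0.54 (edgeR adjusted p = 0.000666), 0.41 (edgeR adjusted p = 0.0177) and 0.41 (edgeR adjusted p = 0.00708). It was the only gene of this list called higher in footprints in all 3 clones, a call that 0.204% of all genes tested received. The RNA call of Ptgfrn in all 3 clones held in every alternative run, whereas the footprint call in all 3 was lost with DESeq2 and without WT replicate 2, KO1 replicate 1, KO3 replicate 2 or either KO2 replicate. Cd151, a tetraspanin that binds laminin-binding integrins, was the gene that fell in RNA, by 0.71, 0.25 and 0.36 in KO1, KO2 and KO3. It was not called in every clone without WT replicate 2. Ptgfrn is also the nearest tested gene before Igsf3 on the chromosome, at a distance of 266805 bases.

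Of 9 tested genes around GDNF-Ret signalling only the adaptor Gab1 was called in all 3 clones. The shares over all genes tested were 0.757% higher and 0.749% lower. Gab1 was higher by 0.37, 0.46 and 0.81 (edgeR adjusted p = 0.0340, 0.0180 and 1.06e-05). It was not called in every clone with DESeq2 or without WT replicate 2, KO2 replicate 1 or either KO1 replicate. Kif26b, the paralog of Kif26a, did not follow it: its RNA was at 0.09 in KO1, fell by 0.86 in KO2 and rose by 0.55 in KO3. Ret itself was not tested for want of counts. Among 15 tested genes of extracellular nucleotide metabolism, Entpd2, an ectonucleotidase that prefers ATP, rose by 1.68, 0.56 and 0.60 in the RNA of KO1, KO2 and KO3 (edgeR adjusted p = 5.42e-14, 0.00194 and 0.000309), opposite to Entpd3. Nt5e, which makes adenosine from AMP, had 2.00 and 3.23 CPM of RNA in WT and between 0.328 and 1.22 CPM in the clones, and its changes of -1.55, -1.22 and -2.86 were called (edgeR adjusted p = 0.00622, 0.0418 and 4.52e-05). With DESeq2, without the filter and without any single library of WT, KO1 or KO2 or KO3 replicate 2, Nt5e was not called in every clone, while the calls of Entpd2 RNA held in every alternative run. In footprints Entpd2 was called in KO1 (1.47) and had 0.27 in KO2 and 0.42 in KO3. Gab1, Entpd2 and Nt5e were named because of their RNA calls, so their RNA p-values carry no weight as a test.

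Genes on either side of the members were compared as well, a comparison chosen after the values were known. The 2 nearest tested genes on each side gave 16 genes, of which Ptgfrn alone was called in RNA in 1 direction in all 3 clones. Such calls were received by 0.757% (higher) and 0.749% (lower) of all genes tested. Tmem179, next after Kif26a at 318442 bases, had 2.73 and 2.98 CPM of RNA in WT and between 1.13 and 1.71 CPM in the clones. Its changes were -1.18 in KO1 and -1.10 in KO3, both called, and -0.83 in KO2, which was not (edgeR adjusted p = 0.122). Beside Arhgap24, Wdfy3 was at 0.18, -0.05 and -0.10 and Aff1 at -0.04, 0.02 and -0.13 in KO1, KO2 and KO3, and Rpl14, which starts 3117 bases after Entpd3, was at -0.33, -0.02 and 0.00.

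**Figure D4:**
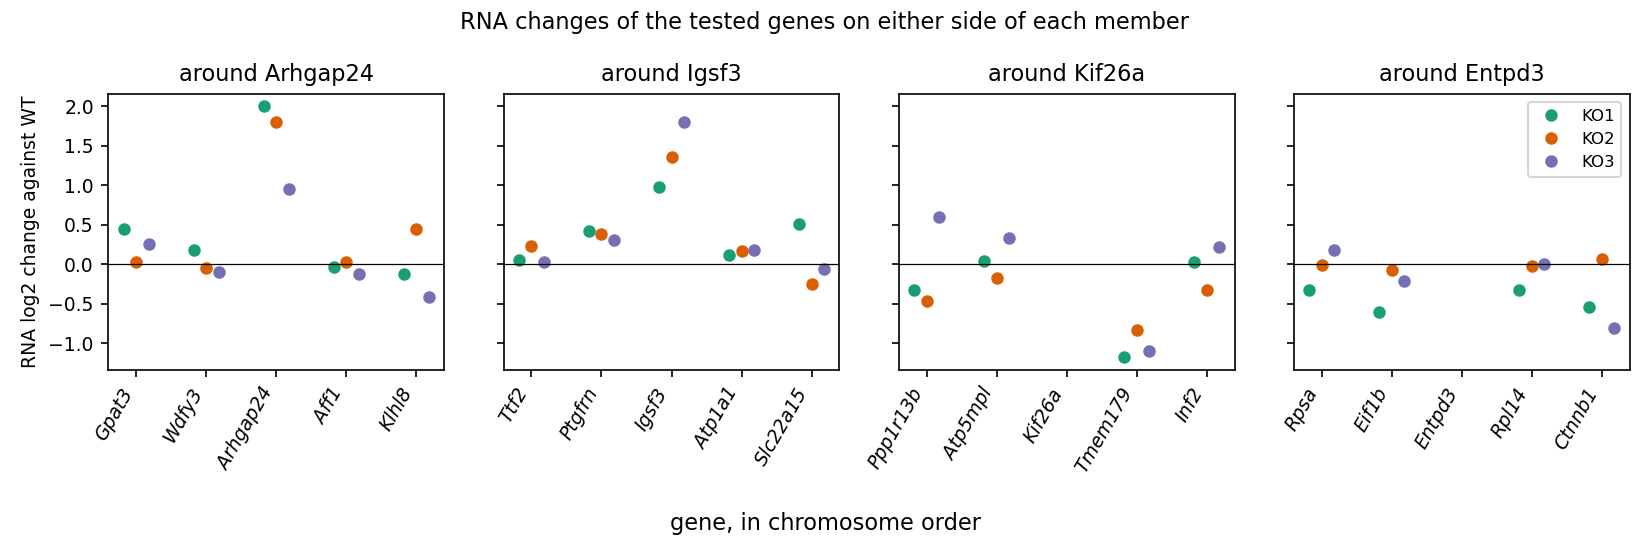
RNA log2 change against WT (y axis) of each clone for the 2 tested genes on either side of each member, in chromosome order (x axis), with the member in the middle. Kif26a and Entpd3 have no point because clone libraries at 0 counts give no fitted change; Ptgfrn lies above 0 in every clone and Tmem179 below 0.

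The genes whose levels ran most alike to each member were named over 10542 genes kept in both assays, by Pearson's r of log2 CPM across the 8 RNA-seq libraries. These libraries share their lysates and lines, and r is given as a description. To each count 0.5 was added before the logarithm. Kif26a and Entpd3 had several libraries at 0, so their r rests largely on the step between WT and the clones that chose them. Arhgap24 was closest to Psmb8 (r = 0.977), an immunoproteasome subunit, whose RNA changes were 1.24, 1.02 and 0.55, and to Cep350 (r = 0.974) and Kansl3 (r = 0.964). Igsf3 was closest to Anxa6 (r = 0.979), a calcium-dependent membrane-binding annexin with RNA changes of 0.63, 0.89 and 1.31, and to Rpl13 (r = 0.967) and Stxbp2 (r = 0.962). Entpd3 ran with Gc (r = 0.992), the vitamin D-binding protein secreted by hepatocytes, with RNA changes of -2.52, -1.38 and -2.45, and with Tmem252 (r = 0.986) and Capg (r = 0.965), an actin-capping protein. Kif26a ran with Mrps18b (r = 0.964), Elk3 (r = 0.956) and Gtf3c1 (r = 0.945). The RNA changes of Mrps18b, a mitochondrial ribosomal protein, were -0.25, -0.16 and -0.16, far smaller than those of Kif26a. In footprints, Tuft1 (r = 0.964) and Kif4 (r = 0.960) were among the 3 closest genes for Arhgap24, and the closest for Igsf3 were Fgfr1 (r = 0.934), Pnpla6 (r = 0.928) and Ckap2 (r = 0.922). Arhgap24 and Igsf3 themselves had r = 0.542 in RNA and 0.153 in footprints.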

How the data were processed

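Ribo-seq and RNA-seq were made from the same lysates of WT and Eef1d exon 5 KO Hepa1-6 cells. The labels name polyA RNA, while their protocol describes rRNA depletion. The counts deposited by the authors are raw counts per transcript, without normalization: reads were trimmed with fastp 0.21.0, aligned to mm10 with STAR 2.7.0a and counted at the A-site on GENCODE vM23 coding sequences without the first and last 5 codons. A read fitting several transcripts counts on each. All 16 columns were used.

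The members and lists were chosen with earlier results of these data known. The transcript with the largest sum was kept for each of 22392 genes (from 67139 transcripts). edgeR 4.0.16 in R 4.3.3 fitted quasi-likelihood models to all libraries of an assay, or to all 16 for TE, with TMM factors within assay, filterByExpr (minimum count 10) and Benjamini-Hochberg adjusted p under 0.05. In RNA-seq all 4 members passed the filter, in Ribo-seq 2. DESeq2 1.42.0 size factors and tests, no filter, all transcripts, WT and 1 clone only, a replicate or lysate block and leaving out each replicate were alternatives. Counting intervals are exact at 95%, from SciPy. Named genes were the members, Eef1d, the 3 genes most alike per member and assay, and up to 3 genes per list called in RNA in all 3 clones, with the largest mean change. 1 of the genes most alike is not reported here. Rac1, Flna, Kif26b, Alb, the hepatocyte and other markers and flanking genes were named after their values were seen. The scripts were tested on simulated data. RNA-seq and Ribo-seq of a lysate share its replicate differences by protocol, with r across 5271 genes of 0.183 in WT, 0.233 in KO1, 0.128 in KO2 and 0.0982 in KO3.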

Additional observations from a re-analysis of the deposited data

Results flagged for a closer look

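Arhgap24 footprints differed between clones, with 26 and 8 footprints in KO1 and 9 and 4 in KO3. KO3 minus KO1 was -1.65 on the log2 scale by edgeR's test of the difference itself (adjusted p = 0.00408). Such a difference was called for 46.9% of genes. The Arhgap24 difference was not called with DESeq2 (-1.74, adjusted p = 0.0786), without KO1 replicate 1 (-1.93) or without KO3 replicate 2 (-1.34). Its RNA differed by -1.05, which carries no test. The TE difference was -0.61 (edgeR adjusted p = 0.785), so no footprint difference beyond that of the RNA was shown. The cause of the footprint difference was not tested.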

How the results depend on the processing

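The footprint and TE changes of Arhgap24 and Igsf3 kept their direction and their side of the threshold with DESeq2's size factors, no filter, all transcripts, WT and 1 clone alone and either block, wherever a value could be had. DESeq2's test ended the call of Arhgap24 footprints in KO1 (1.99), of the Arhgap24 difference KO3 minus KO1 (-1.74) and of Igsf3 footprints over the mean (1.87), and called fewer genes in footprints: 1265 in KO1, 386 in KO2, 1353 in KO3, 343 for the mean and 3 higher in all 3 clones. In RNA it called 53 genes higher and 58 lower in all 3 clones. In TE it called 16 genes in KO1. Replicate differences of different lines correlated across genes with r between 0.0478 and 0.32 (RNA-seq) or 0.0838 and 0.144 (Ribo-seq), positive in every pair. Not every pair was over 0.1, so the replicate numbers were not taken to pair the lines, which does not show that they share nothing. A replicate block changed no call of a member, and gave 34 genes called higher in footprints in all 3 clones and TE calls for 18 genes in KO1 and 16 in KO3. All transcripts gave TE calls for 20 genes in KO1, 13 in KO3 and 2 for the mean, the lysate block for 53, 33 and 1, no filter for 14 in KO3, and WT and 1 clone alone for 12 in KO3. The cause was not tested.

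Where 1 replicate was left out, the lone library of that line was assumed to vary like the other lines. This moved the Arhgap24 footprint change over 1.74 to 2.19 in KO1, 0.162 to 1.32 in KO2 (lowest without KO2 replicate 1) and -0.26 to 0.56 in KO3, where it turned negative without KO3 replicate 1, and its differences over -1.74 to -0.57 (KO2 minus KO1), -2.16 to -1.34 (KO3 minus KO1) and -1.19 to 0.0957 (KO3 minus KO2, positive without KO2 replicate 1). Igsf3 footprints ranged over 0.666 to 2.55 in KO1, 1.10 to 2.99 in KO2, 1.53 to 3.41 in KO3 and 1.10 to 2.99 for the mean. TE of Arhgap24 in KO1 ranged over -0.615 to 0.444, positive without WT replicate 1 and, at 0.0545, without KO1 replicate 1. Its TE change ranged over -1.81 (without KO2 replicate 1) to -0.259 (without KO2 replicate 2) in KO2, -1.34 (without KO3 replicate 1) to -0.155 (without WT replicate 1) in KO3 and -1.08 (without WT replicate 2) to -0.0126 (without WT replicate 1) for the mean. TE of Igsf3 ranged over -0.306 to 1.56 in KO1, -0.243 to 1.62 in KO2, -0.259 to 1.59 in KO3 and -0.269 to 1.59 for the mean, negative without WT replicate 1. In RNA, 46 genes were called higher in all 3 clones without WT replicate 2 and 50 without WT replicate 1. Numbers of genes called ranged, in footprints, over 1181 to 2884 in KO1, 612 to 1303 in KO2, 2052 to 3199 in KO3, 384 to 1013 for the mean and 8 to 26 higher in all 3 clones, and in TE over 3 to 13 in KO1, 1 to 3 in KO2 and 2 to 12 in KO3. Raw library totals in place of TMM, chosen after seeing the data, left the Kif26a and Entpd3 ratios and bounds close to their values (9.05 in place of 8.73 for Entpd3 in KO3).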
